A study of Rattus norvegicus with 4 samples.

Results

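The sarcomere is the contractile unit of striated muscle. A set of 50 genes for its filaments, its Z-disc and M-band proteins and its regulators was followed through RNA sequencing of xiphoid cartilage, the lower tip of the sternum, and articular cartilage, which covers the bone ends in joints. Genes were picked by symbol, and 46 of the 50 had a row among the 13554 genes of the deposited count table. Ttn, Neb, Xirp1 and Lmod3 were not analysed here. Both tissues came from Sprague-Dawley rats aged 8 to 10 weeks with no treatment named, and each tissue had 2 libraries. The libraries held 7351006 to 8434820 counts. The labels give neither the joint, the sex nor the animals behind a library, so p-values measure the spread between these libraries, which may be technical.

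In a sarcomere, myosin heavy chains with their light chains form the thick filament and pull on a thin filament of actin and tropomyosin. Calcium binds troponin C, troponin I then releases its block on actin, and troponin T anchors both to tropomyosin. Many of these proteins exist as separate genes for fast fibres, slow fibres, heart or the developing muscle, and their proteins are used to tell fibre types apart. Cartilage itself has no sarcomeres, while skeletal muscle attaches around the xiphoid process. Some members, such as the tropomyosins, are also made by cells other than muscle.

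Cartilage transcript was looked at first, which cannot show whether a library is labelled with the right cartilage. Col2a1, the chain of type II collagen, was at 16347 and 14862 CPM (read counts relative to library size, with TMM scaling) in the xiphoid libraries and at 103394 and 85673 CPM in the articular libraries, so cartilage transcript was plentiful in each of the 4. Markers of fat, and many of connective tissue, were also high in the xiphoid libraries. The 8 adipocyte markers together held 0.298% and 0.230% of xiphoid counts, against 0.00842% and 0.00696% of articular counts. All 8 were higher in xiphoid cartilage (edgeR adjusted p under 0.05), beside 24.5% of all genes tested. The 13 fibroblast markers held 2.74% and 2.61%, against 1.03% and 1.09%. Much of this gap lay in Gsn, at 13878.9 and 12738.5 CPM in xiphoid and 352 and 338 CPM in articular libraries. By the same test 8 of the 13 were higher in xiphoid cartilage, 4 did not pass, and Dcn was higher in articular cartilage. Erythroid and bone cell markers ran the other way, with the 8 bone cell markers at 0.0169% and 0.0156% of xiphoid counts and 0.459% and 0.342% of articular counts. The part of these cell mixtures in the results below was not tested, and in bulk RNA fewer cells of a type and less RNA per cell cannot be told apart.

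Sarcomere transcripts were a visible part of the xiphoid libraries and a trace of the articular ones. The 46 genes together took 97021 and 82923 counts in the xiphoid libraries, or 1.15% and 1.13% of each, against 6820 and 5278 counts, or 0.0812% and 0.0678%, in the articular libraries. Skeletal actin, Acta1, alone gave 26.6% and 32.4% of the members' counts in xiphoid cartilage but 0.279% and 0.246% in articular cartilage. In articular cartilage, 90.5% and 91.2% of the members' counts came from 11 genes that were not restricted to xiphoid libraries, which are described below. Without those 11 genes the members held 0.989% and 0.973% of the xiphoid libraries, against 0.00772% and 0.00595% of the articular libraries. The sorting of the 11 used these same articular levels. The share held by the 11 genes and the gap left without them therefore follow in part from the sorting.

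The members were sorted by their articular counts. With at most 3 counts over both articular libraries, which is the limit that a count of 0 allows, 16 members were called restricted to xiphoid cartilage, and 11 of these had no articular count at all. Another 19 had more than 3 counts but a mean articular level under 10% of the xiphoid level. The other 11 were above 10% and were called not restricted. Of the 46, 44 had enough counts to be tested, and 38 passed (edgeR quasi-likelihood test, adjusted p under 0.05), beside 49.5% of all 11202 genes tested. Of these, 37 were higher in xiphoid cartilage, beside 24.5% of all genes, and 1 was higher in articular cartilage, beside 25% of all genes. Many members passed the filter on low counts through their xiphoid counts alone, so their count is a description. Over all 46 members, tested or not, the libraries of the tissues did not overlap for 41 that were higher and 1 that was lower in xiphoid cartilage. They did not overlap, in either direction, for 74.9% of all genes tested. The plot of levels by library shows the 3 classes.

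**Figure D1:**
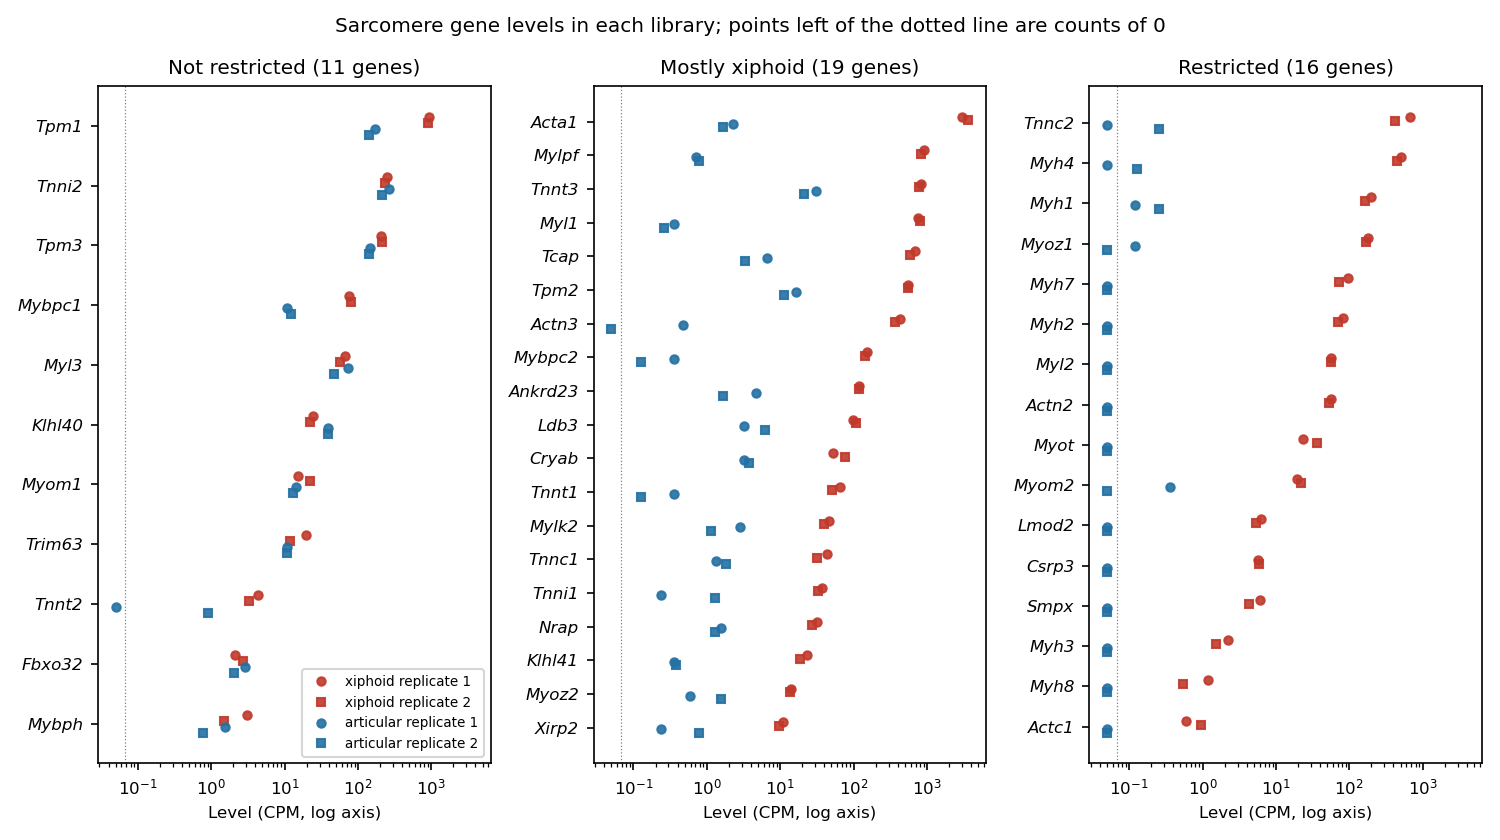
Level of each of the 46 sarcomere genes in CPM (log axis) in the 2 xiphoid and the 2 articular libraries, with 1 point per library. The 11 genes on the left had articular levels of at least 10% of the xiphoid levels, the 19 in the middle had less, and the 16 on the right had at most 3 articular counts; points left of the dotted line are counts of 0.

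To set sequence beside these levels, RefSeq promoters (build GRCr8) were found for 34 of the 46 genes, and the 250 bases before each annotated start were searched on both strands. A MEF2 site, the core motif of the myocyte enhancer factors, was found in 9 of the 34 genes (26.5%), against 1.72% of the 10961 genes of the table with a promoter. A CArG box, the motif of serum response factor, was found in 4 (11.8%, against 1.18%). CATTCC, the MCAT element of muscle genes, was found in 9 (26.5%, against 10.7%), TATAAA in 10 (29.4%, against 7.82%) and CANNTG, the E-box bound by myogenic factors, in 27 (79.4%, against 59.3%). These are matches of letters, not binding sites. The 9 genes with a MEF2 site were Klhl40, Klhl41, Myh1, Myh4, Myl1, Myoz1, Myoz2, Smpx and Xirp2. Of these, 8 were restricted to or mostly in xiphoid cartilage, and Klhl40 was the member that was higher in articular cartilage. Most of the 46 members were in those classes too, with 16 restricted and 19 mostly in xiphoid cartilage. Whether the site goes with the class was not tested.

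The windows of 6 genes, chosen after their values were seen, are shown 5′ to 3′, with MEF2 sites, CArG boxes, CATTCC and TATAAA on either strand in capitals. Acta1 and Myh4 were among the members furthest apart between the tissues, Klhl41 and Klhl40 are paralogs that differed in direction, and Tnni2 and Myl3 had near-equal levels in both tissues.
Acta1, chr19:68784195-68784444, minus strand: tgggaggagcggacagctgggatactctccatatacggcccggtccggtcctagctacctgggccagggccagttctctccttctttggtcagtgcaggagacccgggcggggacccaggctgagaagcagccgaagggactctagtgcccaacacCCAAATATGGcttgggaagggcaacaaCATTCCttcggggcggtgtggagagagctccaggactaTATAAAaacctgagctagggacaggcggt
Myh4, chr10:52421898-52422147, plus strand: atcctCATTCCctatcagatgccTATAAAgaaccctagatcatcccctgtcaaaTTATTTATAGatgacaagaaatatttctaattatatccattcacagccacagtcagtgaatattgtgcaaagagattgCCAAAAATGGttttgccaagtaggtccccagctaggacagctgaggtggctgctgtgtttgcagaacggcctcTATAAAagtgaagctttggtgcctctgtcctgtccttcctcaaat
Klhl41, chr3:74841868-74842117, plus strand: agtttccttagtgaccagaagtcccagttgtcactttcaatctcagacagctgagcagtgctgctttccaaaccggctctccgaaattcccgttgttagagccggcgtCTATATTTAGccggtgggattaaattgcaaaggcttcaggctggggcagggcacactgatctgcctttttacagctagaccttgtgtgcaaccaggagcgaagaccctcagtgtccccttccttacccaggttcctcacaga
Klhl40, chr8:130318543-130318792, plus strand: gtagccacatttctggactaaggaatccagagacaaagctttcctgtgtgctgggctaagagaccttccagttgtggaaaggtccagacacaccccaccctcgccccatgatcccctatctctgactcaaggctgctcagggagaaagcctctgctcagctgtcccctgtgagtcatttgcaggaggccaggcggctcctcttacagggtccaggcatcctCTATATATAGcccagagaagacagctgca
Tnni2, chr1:207024240-207024489, plus strand: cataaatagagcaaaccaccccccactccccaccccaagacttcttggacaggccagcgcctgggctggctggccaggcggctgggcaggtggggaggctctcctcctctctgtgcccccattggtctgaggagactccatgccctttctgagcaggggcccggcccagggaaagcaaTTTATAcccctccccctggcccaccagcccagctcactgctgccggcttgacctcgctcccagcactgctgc
Myl3, chr8:119616844-119617093, plus strand: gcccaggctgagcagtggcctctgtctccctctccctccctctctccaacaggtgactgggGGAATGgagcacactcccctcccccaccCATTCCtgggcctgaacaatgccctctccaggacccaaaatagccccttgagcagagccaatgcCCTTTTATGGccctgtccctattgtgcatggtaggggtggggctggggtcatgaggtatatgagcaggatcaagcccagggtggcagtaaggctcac

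The Acta1 window held a CArG box from base 94 before the start, CATTCC from base 67 and TATAAA from base 29. In the Myh4 window, 1 of 3 TATAAA matches lay on the other strand inside the MEF2 site that begins at base 196, and a CArG box began at base 118. Klhl41 and Klhl40 each held 1 MEF2 site, from base 142 and base 29 before the start. The Myl3 window held a CArG box from base 97 and 2 CATTCC matches, 1 of them on the other strand, and the Tnni2 window 1 TATAAA match on the other strand from base 72.

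Among the myosin heavy chains, the motor proteins of the thick filament, fast genes held most of the xiphoid reads. Myh4, the heavy chain of the fastest, type IIB fibres, was at 514.7 and 452 CPM in the xiphoid libraries and at 0 and 0.128 CPM in the articular libraries. Myh1, of type IIX fibres, was at 196 and 164 CPM against 0.12 and 0.257 CPM. Myh2, of type IIA fibres, was at 82.2 and 69.3 CPM in xiphoid cartilage with no articular count, at least 410-fold higher. The slow heavy chain Myh7, shared by slow fibres and the heart, was at 96.4 and 72.5 CPM with no articular count, at least 459-fold higher. Over both articular libraries Myh4 had 1 count and Myh1 had 3, which gives ratios of 7843 (95% exact counting interval 1407 to 309815) and 975 (333 to 4732). Here and below a bound is taken against 3 counts over both articular libraries, which is 0.186 CPM, and intervals and bounds cover counting error only.

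As shares of the reads of all 6 heavy chain genes, the 3 fast genes held 88.8% (95% exact interval 88.1 to 89.5) and 90.2% (89.4 to 91.0) in the xiphoid libraries. Myh7 held 10.8% (10.1 to 11.5) and 9.53% (8.77 to 10.3). The developmental heavy chains Myh3, of embryonic muscle, and Myh8, of perinatal muscle, held 0.382% and 0.270% together. Within the fast genes, Myh4 held 64.9% and 65.9%, Myh1 24.7% and 23.9%, and Myh2 10.4% and 10.1%, so both xiphoid libraries had the same order. The articular libraries had 1 and 3 heavy chain reads in all, too few for a share. Shares are of reads, since transcript lengths were not at hand, and tissues of 2 libraries each cannot reach a 2-sided exact permutation p below 0.333, so shares were not tested.

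Reads of these near-identical genes could be split between copies. The values of Myh1, Myh2, Myh4, Myh7 and Myh8 were not whole numbers in the xiphoid libraries. The sum of Myh1, Myh2, Myh4 and Myh8, which lie on 1 chromosome of the RefSeq table in the order Myh2, Myh1, Myh4, Myh8, was whole to within 0.02 in each of the 4 libraries, at 6752 and 5008 counts in xiphoid and 1 and 3 in articular cartilage. The sum of Myh7 and its cardiac neighbour in sequence Myh6 was likewise whole, at 838 and 544 against 8 and 3 counts. The levels of single heavy chains are therefore estimates, whereas the sums are not affected by such a split. Of the developmental genes, Myh3 had 19 and 11 xiphoid counts and no articular count, at least 10.2-fold higher. Myh8 had 10 and 4 xiphoid counts, was not tested and had no articular count.

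**Figure D2:**
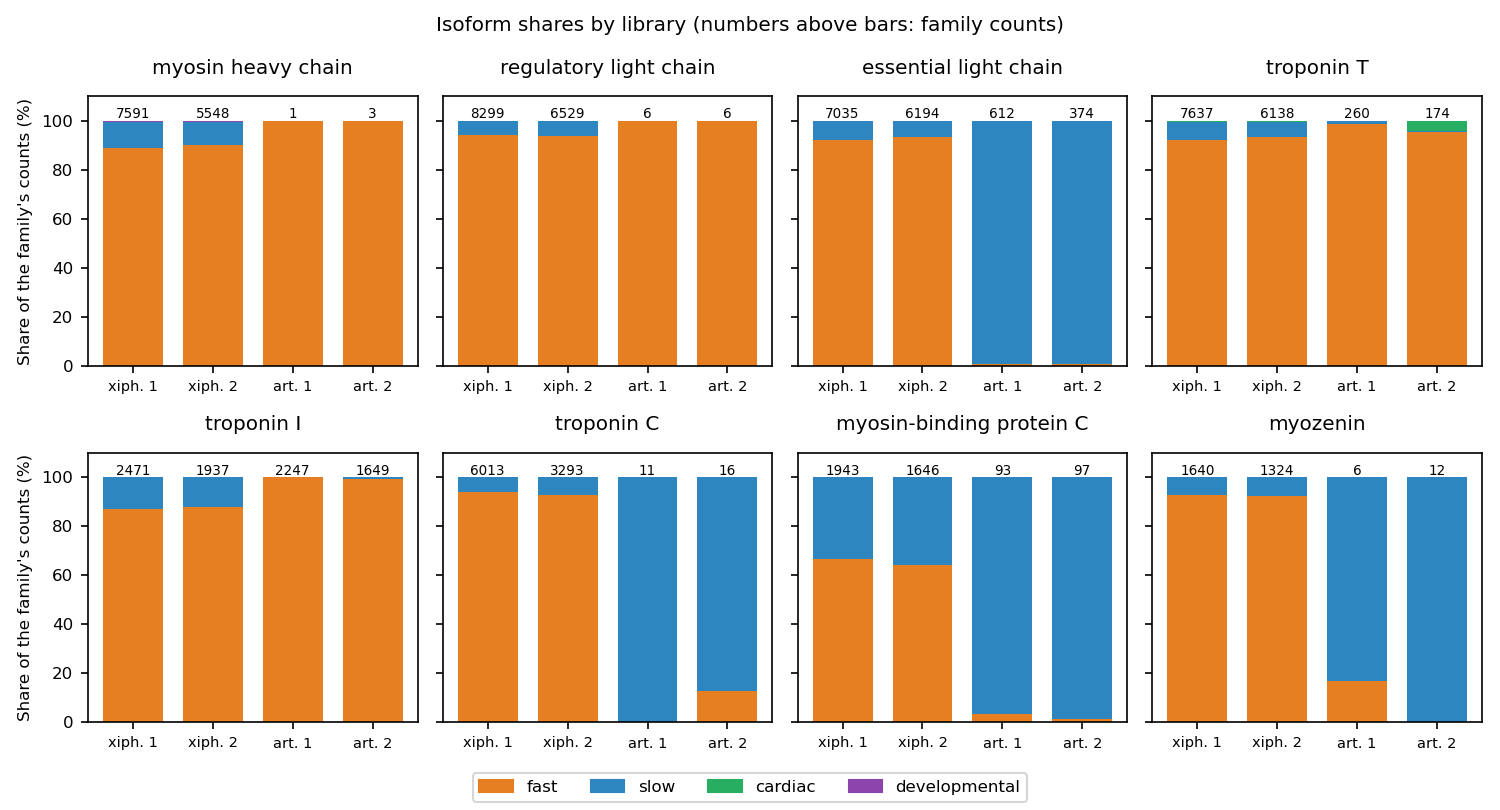
Share of each family's counts (percent) held by fast, slow, cardiac and developmental genes in the 2 xiphoid and the 2 articular libraries, with the family's number of counts above each bar. In xiphoid cartilage fast genes held most counts of all 8 families. In articular cartilage the slow genes Myl3 and Mybpc1 held most counts of their families. The fast gene Tnnt3 held 98.8% and 95.4% of articular troponin T counts, and fast Tnni2 nearly all counts of troponin I. Families with few articular counts give no usable share.

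The light chains, which stiffen the myosin neck and tune its motor, split between tissues in an unequal way. The fast regulatory chain Mylpf was at 918.7 and 838.8 CPM in the xiphoid libraries and at 0.718 and 0.771 CPM in the articular libraries (log2 fold change 10.18, SE 0.25, edgeR adjusted p = 7.04e-11). The fast essential chain Myl1 was at 761 and 792 CPM against 0.359 and 0.257 CPM (log2 fold change 11.22, SE 0.27, edgeR adjusted p = 7.04e-11). The slow regulatory chain Myl2 was at 57.1 and 55.6 CPM with no articular count, at least 304-fold higher. Its partner in slow fibres and heart, the essential chain Myl3, was at 66.2 and 56.3 CPM in xiphoid and at 72.9 and 47.8 CPM in articular cartilage, and the libraries overlapped. The log2 fold change of Myl3 was 0.02 with a 95% interval of -0.41 to 0.46 (edgeR adjusted p = 0.94).

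Myl3 thus held 8.00% and 6.64% of essential light chain reads in the xiphoid libraries but 99.5% and 99.5% in the articular libraries, with 609 and 372 articular reads behind the articular shares. For the regulatory chains the slow share was 5.86% and 6.22% in xiphoid cartilage, and all 6 and all 6 articular reads were of fast Mylpf. No other gene of the RefSeq table overlapped Myl3.

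The troponins, the calcium switch of the thin filament, included the 1 fast gene with near-equal levels in both tissues. Fast troponin C, Tnnc2, was at 663 and 419 CPM in the xiphoid libraries and at 0 and 0.257 CPM in the articular libraries, 8700 counts against 2 and a ratio of 4444 (95% exact interval 1230 to 36701). It was also the member with the widest gap between the xiphoid libraries among the 10 members with the highest xiphoid levels, at 1.58 times more in replicate 1. Fast troponin T, Tnnt3, was at 828 and 786 CPM against 30.7 and 21.3 CPM (log2 fold change 4.95, SE 0.20, edgeR adjusted p = 2.73e-09), so its articular level was 3.22% of the xiphoid level. Fast troponin I, Tnni2, was at 253 and 233 CPM in xiphoid cartilage and at 269 and 210.5 CPM in articular cartilage, and the libraries overlapped. Its log2 fold change was 0.02 with a 95% interval of -0.32 to 0.36 (edgeR adjusted p = 0.925). Tnni2 made up 32.9% and 31.1% of all member counts in the articular libraries, against 2.22% and 2.05% in the xiphoid libraries.

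In human cartilage troponin I has been described as an inhibitor of vessel growth, outside any sarcomere. The Tnni2 level carries a limit of counting, however. On the RefSeq table the Tnni2 gene overlaps Syt8, a synaptotagmin, and Ctsd, the lysosomal protease cathepsin D. Neither Tnni2 nor Syt8 had a whole value in any library, but their sum was whole to within 0.02 in all 4 libraries, at 4408 and 3590 counts in xiphoid and 4090 and 3238 in articular cartilage. Of that sum, 48.9% and 47.4% were given to Tnni2 in xiphoid and 54.9% and 50.6% in articular cartilage. How the reads divide between both genes cannot be told from the table. Counted as 1 gene, an addition chosen after seeing the data, Tnni2 and Syt8 had a log2 fold change of 0.16 (edgeR adjusted p = 0.405).

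The slow troponins were higher in xiphoid cartilage. Tnnt1, slow troponin T, was at 65.4 and 51.1 CPM in xiphoid and at 0.359 and 0.128 CPM in articular cartilage. Tnni1, slow troponin I, was at 37.4 and 32.3 CPM against 0.239 and 1.28 CPM, and all 3 slow genes passed the test. Tnnc1, the troponin C of slow fibres and heart, was at 43.7 and 32.1 CPM against 1.32 and 1.80 CPM (log2 fold change 4.60, SE 0.30, edgeR adjusted p = 1.15e-07). In xiphoid cartilage the slow gene held 7.28% and 6.08% of troponin T, 12.9% and 12.2% of troponin I and 6.19% and 7.11% of troponin C reads. Shares of slow genes were thus within 5.86% to 12.9% in both xiphoid libraries for the heavy chains, light chains and troponins. The troponin I share depends on Tnni2, whose reads may be split with Syt8, and the essential chain share on Myl3. Both genes had near-equal levels in articular cartilage. Of the pairs described below, slow Myoz2 held 7.20% and 7.55% of myozenin reads. Slow Mybpc1 lay outside the range, at 33.6% and 35.8% of its pair. In articular cartilage Tnni1 had 2 and 10 reads beside 2245 and 1639 of Tnni2, and Tnnc2 and Tnnc1 had 2 and 25 reads in all.

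Isoforms made mainly in the heart were at trace level in both tissues. Actc1, cardiac actin, had 5 and 7 counts in the xiphoid libraries, 0.0194% and 0.0261% of the reads of both sarcomeric actins, and no articular count. It was not tested. Tnnt2, cardiac troponin T, had 37 and 24 xiphoid counts, 0.484% and 0.391% of troponin T reads, and 0 and 7 articular counts. It passed the test (log2 fold change 3.09, SE 0.75, edgeR adjusted p = 0.00474), but all its articular counts came from replicate 2, and the log2 fold change was 2.07 without articular replicate 1. Without articular replicate 2 no articular count was left, so no fold is given. All 3 tested genes of the cardiac list were also called toward xiphoid cartilage, beside 24.5% of all genes tested. Myl4, an atrial light chain, was at 9.17 and 6.03 CPM against 0.718 and 1.16 CPM. The others were Tbx5, a transcription factor, at 10.3 and 10.1 CPM with no articular count, and Myh6. Myh6 was at 2.12 and 2.05 CPM against 0.957 and 0.385 CPM (edgeR adjusted p = 0.0487), and its reads may be split with Myh7. Myl7, Tnni3, Nppa and Nppb, which define heart muscle, were not analysed here.

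Actin and tropomyosin, which form the thin filament, differed in how much of their transcript was in xiphoid cartilage. Acta1 was at 3032 and 3678 CPM in the xiphoid libraries and at 2.27 and 1.67 CPM in the articular libraries (log2 fold change 10.72, SE 0.26, edgeR adjusted p = 7.04e-11). Tpm2, the beta chain of tropomyosin, was at 557 and 557 CPM against 16.6 and 11.3 CPM (log2 fold change 5.31, SE 0.21, edgeR adjusted p = 1.63e-09). Tpm1, the alpha chain of fast and heart muscle that is also made outside muscle, was at 924 and 913 CPM against 171 and 141 CPM (log2 fold change 2.56, SE 0.16, edgeR adjusted p = 9.89e-08). Tpm3, the slow muscle and cytoskeletal chain, was at 208 and 213 CPM against 146 and 140.1 CPM. Its log2 fold change of 0.56 (SE 0.14, edgeR adjusted p = 0.00564) missed the threshold without xiphoid replicate 1 (adjusted p = 0.0551) and without xiphoid replicate 2 (adjusted p = 0.0774).

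Tropomyosin genes make muscle and non-muscle transcripts, which gene counts do not separate. Tpm4, a tropomyosin of non-muscle cells, was higher in articular cartilage, at 79.8 and 62.3 CPM in xiphoid and 153 and 118 CPM in articular libraries (log2 fold change -0.93, edgeR adjusted p = 0.00107). Of 13 tested non-muscle actomyosin genes, Cnn3 and Myl12a were called toward xiphoid cartilage, Tpm4 alone toward articular cartilage, and the other 10 missed the threshold, with a median log2 fold change of 0.11. Smooth muscle genes moved toward xiphoid cartilage in 9 of 12 tested genes, beside 24.5% of all genes tested. Rgs5, a pericyte gene, went the other way, and the median of the list was 1.47. That list shares Des with the sarcomere list below. Among them Acta2, the actin of smooth muscle, was at 34.9 and 47.4 CPM against 5.98 and 6.94 CPM. Together the 14 smooth muscle genes held 0.0555% and 0.0552% of xiphoid counts and 0.0178% and 0.0177% of articular counts, and their part in the tropomyosin levels was not tested.

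**Figure D3:**
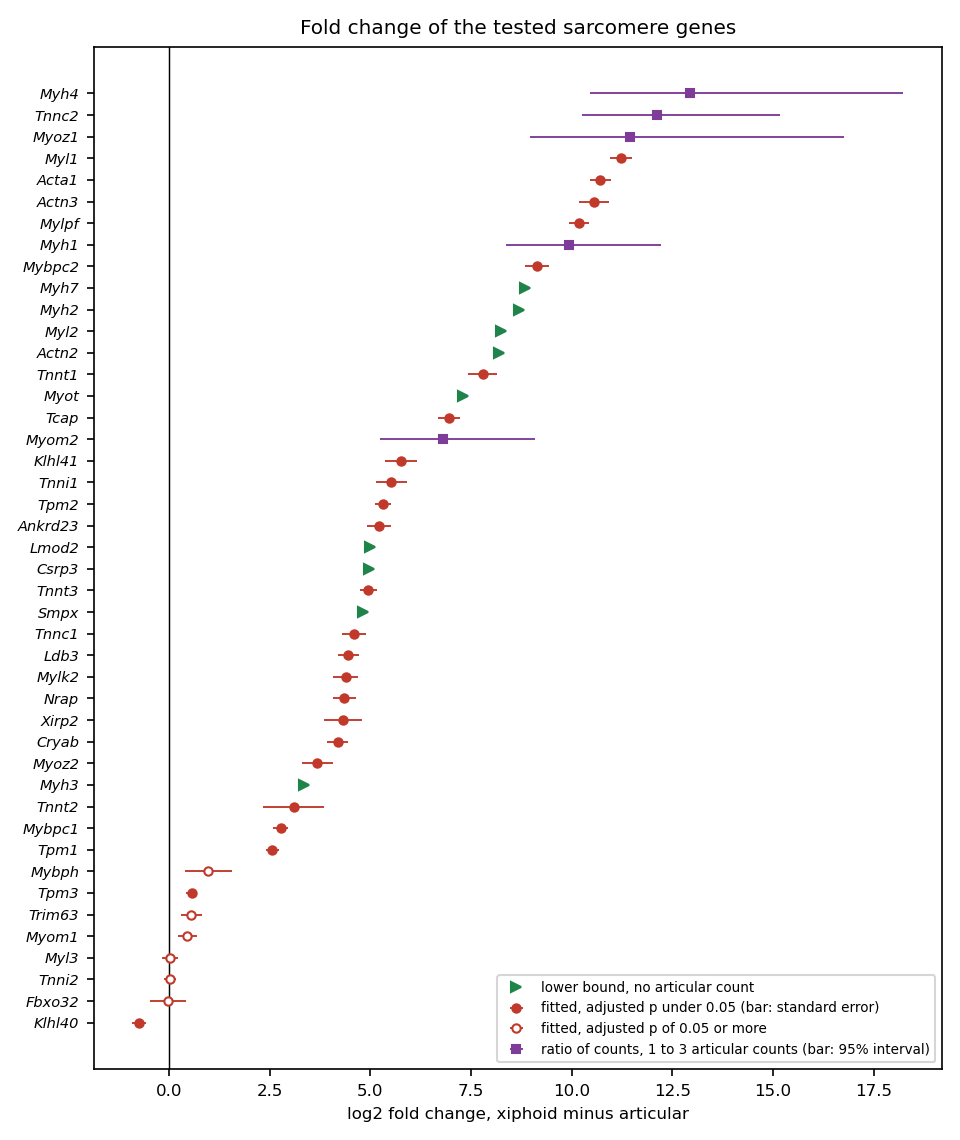
Log2 fold change, xiphoid minus articular, of the 44 tested sarcomere genes: fitted values with standard errors, ratios of counts with 95% intervals where 1 to 3 articular counts were found, and lower bounds where none was found. Klhl40 is the 1 gene left of 0 that passed the test, and Tnni2 and Myl3 lie at 0.02.

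The thick filament and the Z-disc, where thin filaments are anchored, also have fast and slow relatives, and in each pair with a fast member that member held most xiphoid reads. Actn3, the alpha-actinin of fast fibres, was at 427.7 and 361 CPM in xiphoid and at 0.479 and 0 CPM in articular cartilage. Actn2, its relative in all fibres, was at 56.1 and 53.6 CPM with no articular count, at least 296-fold higher, and Actn3 held 88.4% and 87.1% of xiphoid reads of the pair. Myoz1, the fast member of a family of calcineurin-binding Z-disc proteins, was at 179 and 168 CPM against 0.12 and 0 CPM, and its slow relative Myoz2 was at 13.9 and 13.7 CPM against 0.598 and 1.54 CPM. Mybpc2, the fast myosin-binding protein C, was at 152 and 145 CPM against 0.359 and 0.128 CPM. Mybpc1, its slow relative, was at 76.8 and 80.7 CPM against 10.8 and 12.3 CPM (log2 fold change 2.77, SE 0.18, edgeR adjusted p = 1.12e-07), so its articular level was 14.7% of the xiphoid level.

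Mybpc1 held 33.6% and 35.8% of the pair's reads in xiphoid cartilage and 96.8% and 99.0% of the 93 and 97 articular reads. The remaining Z-disc genes were mostly in xiphoid cartilage. Tcap, the titin cap protein telethonin, was at 683 and 581 CPM against 6.70 and 3.34 CPM. Ldb3, a PDZ and LIM domain protein of the Z-disc, was at 98.5 and 109 CPM against 3.23 and 6.29 CPM (log2 fold change 4.45, SE 0.25, edgeR adjusted p = 3.82e-08). Myot, the actin cross-linker myotilin, was at 23.3 and 36.2 CPM with no articular count, at least 157-fold higher, and its values were not whole either. Csrp3, the muscle LIM protein, was at 5.76 and 5.89 CPM with no articular count.

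Regulators and maintenance genes of the sarcomere were spread over all classes. Nrap, an actin anchor of growing myofibrils, was at 31.5 and 27.4 CPM in xiphoid and at 1.56 and 1.28 CPM in articular cartilage (log2 fold change 4.36, SE 0.28, edgeR adjusted p = 1.27e-07). Mylk2, the kinase of skeletal light chains, was at 45.9 and 40.1 CPM against 2.87 and 1.16 CPM, and Ankrd23, an ankyrin repeat protein that binds titin, at 119 and 119 CPM against 4.67 and 1.67 CPM. Cryab, a small heat shock protein that protects desmin and titin, was at 51.7 and 75.8 CPM against 3.23 and 3.72 CPM (log2 fold change 4.19, SE 0.26, edgeR adjusted p = 8.07e-08). Cryab overlaps the related gene Hspb2 in the RefSeq table. The values of both genes were whole numbers in all 4 libraries, unlike those of Tnni2 and Syt8, and whether their reads were mixed was not tested. Xirp2, an actin-binding protein, was at 10.9 and 9.59 CPM against 0.239 and 0.771 CPM. Lmod2, which elongates thin filaments, and Smpx, a small protein of the muscle membrane skeleton, had 93 and 83 xiphoid counts in all and no articular count, at least 31.7-fold and 28.3-fold higher.

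The paralogs Klhl40 and Klhl41, ubiquitin ligase adaptors that stabilise nebulin and thin filaments in muscle, went in opposite directions. Klhl41 was at 23.5 and 18.4 CPM in xiphoid and at 0.359 and 0.385 CPM in articular cartilage (log2 fold change 5.76, SE 0.39, edgeR adjusted p = 1.92e-07). Klhl40 was at 24.8 and 22.3 CPM in xiphoid and at 39.4 and 39.4 CPM in articular cartilage, and the libraries did not overlap. The articular mean was 1.67 times the xiphoid mean in the fit, a log2 fold change of -0.74 (SE 0.17, edgeR adjusted p = 0.00396). Both genes carried a MEF2 site in the windows printed above. The direction and the call held in each of the alternative fits, with an adjusted p of at most 0.0479 without 1 library.

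Myom1 and Myom2 encode M-band proteins that tie thick filaments together, and the difference between both genes was not tested. Myom2 was at 19.6 and 22.1 CPM in xiphoid and at 0.359 and 0 CPM in articular cartilage, 328 counts against 3 and a ratio of 112 (95% exact interval 37.9 to 544). Myom1 was at 15.2 and 22.3 CPM in xiphoid and at 14.4 and 13.0 CPM in articular cartilage, and did not pass (log2 fold change 0.45, 95% interval -0.07 to 0.97, edgeR adjusted p = 0.137). The ubiquitin ligases of muscle wasting did not pass either. Trim63, the ligase MuRF1, was at 19.9 and 12.1 CPM against 10.9 and 10.9 CPM (log2 fold change 0.56, 95% interval -0.02 to 1.13, edgeR adjusted p = 0.102), although it passed without xiphoid replicate 2 (0.85, adjusted p = 0.0235). Fbxo32, the ligase subunit atrogin, was at 2.12 and 2.74 CPM against 2.87 and 2.06 CPM (log2 fold change -0.03, 95% interval -1.02 to 0.95). Mybph, a relative of myosin-binding protein C, was at 3.06 and 1.51 CPM against 1.56 and 0.771 CPM and did not pass. For none of these 4 genes does the missed threshold show equal levels.

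Over the 37 members with at least 100 xiphoid counts, the signed log2 ratio of xiphoid replicate 1 to replicate 2 had a median of 0.12. It ran from -0.64 for Myot to 0.72 for Trim63. Of these 37, 27 were higher in replicate 1, Tnnc2 among them, and 10 were higher in replicate 2, Acta1 among them.

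Other muscle genes, taken from lists chosen with earlier results of these data known, were set beside the members. Of all genes tested, 24.5% were called toward xiphoid and 25% toward articular cartilage. Genes with no articular count, such as Trim54 and Pvalb, passed the filter through their xiphoid counts alone, so the counts of genes called per list are a description. The median log2 fold change of the tested members was 5.64, or 4.98 with genes that had no articular count placed at their bound and those with 1 to 3 at their ratio of counts, against 0.02 over all genes tested. Of 24 tested genes in the list of other sarcomere and Z-disc genes, 21 were called toward xiphoid cartilage and 3 missed the threshold, with a median of 2.52. Among them Des, the intermediate filament desmin, was at 169 and 165 CPM in xiphoid and 7.30 and 10.3 CPM in articular cartilage, and Trim54, a Z-disc ubiquitin ligase, at 22.1 and 21.2 CPM with no articular count. Calcium handling genes were higher in xiphoid cartilage in 12 of 15 tested, with a median of 5.39. Atp2a1, the calcium pump of fast fibres, was at 794 and 816 CPM against 2.15 and 1.67 CPM, and Pvalb, the calcium buffer of fast fibres, at 281 and 279.6 CPM with no articular count. The pump of slow fibres and non-muscle cells, Atp2a2, was at 132 and 134 CPM against 124 and 144 CPM, and did not pass. It was named after its values were seen.

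All 15 tested muscle energy genes were higher in xiphoid cartilage, beside 24.5% of all genes tested, with a median of 4.78. Ckm, muscle creatine kinase, was at 1734 and 1750 CPM in xiphoid and 0.12 and 0.385 CPM in articular cartilage, and Mb, the oxygen store myoglobin, at 327 and 284 CPM against 0.239 and 0.128 CPM. The dystrophin complex, which ties the sarcomere to the membrane, was mixed, with 5 of 10 tested genes called toward xiphoid cartilage, Sgcb and Dysf toward articular cartilage, and 3 that missed the threshold. Of the myogenic regulators and satellite cell genes, 7 of 14 were tested, with Myf6 and Vgll2 higher in xiphoid and Mef2a, Mef2d and Cdh15 higher in articular cartilage. Myf6, the regulator of mature fibres, was at 3.53 and 4.93 CPM against 0.12 and 0 CPM, and the master regulators Myod1 and Myog had 23 and 17 counts over both xiphoid libraries and no articular count, and were not tested. Mef2a, whose product binds the MEF2 site, was at 42.7 and 54.8 CPM in xiphoid and 164 and 202 CPM in articular cartilage (log2 fold change -1.91, edgeR adjusted p = 3.13e-06). At the neuromuscular junction 3 of 11 genes were tested, with Chrnb1, a receptor subunit, called toward xiphoid and Lrp4, the agrin receptor that bone and cartilage cells also make, toward articular cartilage.

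**Figure D4:**
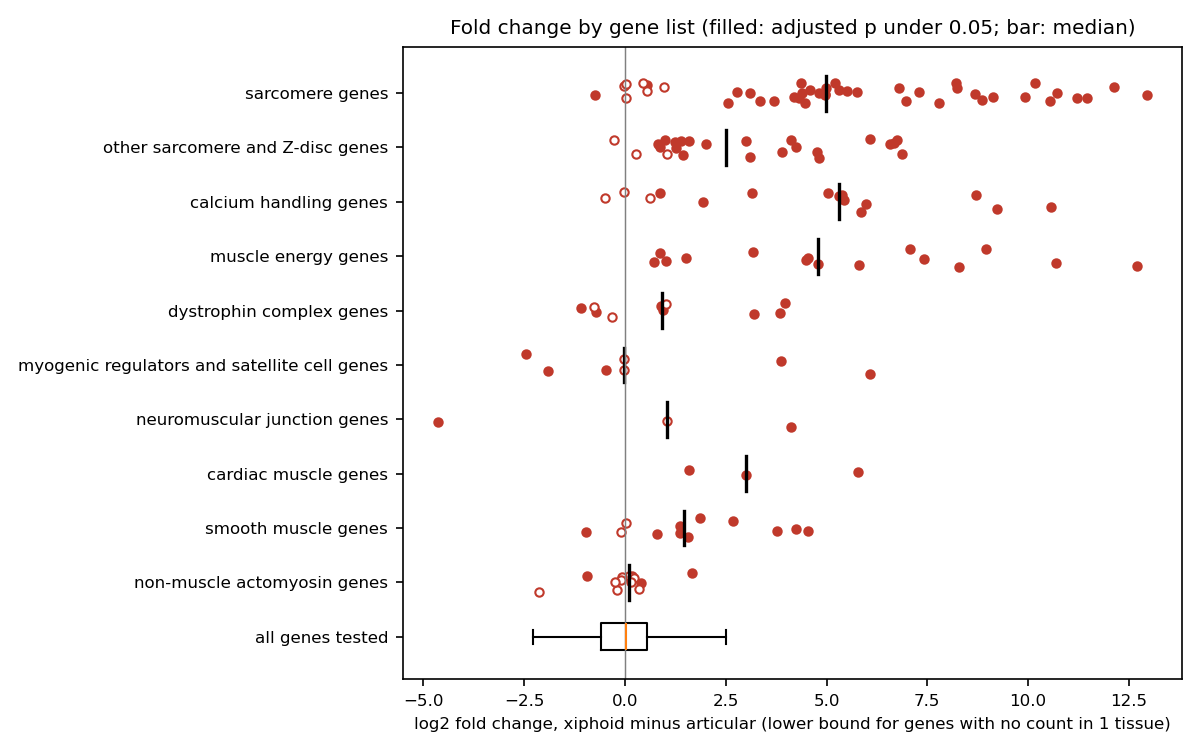
Log2 fold change, xiphoid minus articular, of the tested genes of the sarcomere set and of 9 other gene lists, with filled points for an adjusted p under 0.05 and a bar at each median. The box at the bottom spans the middle of all 11202 genes tested, and genes with no count in 1 tissue are drawn at their bound (at the ratio of counts with 1 to 3 articular counts); the median of the sarcomere genes drawn in this way is 4.98.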

How the data were processed

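Per the file headers and the values, the authors deposited an expected count per gene and library without normalization, of which 3.91% were not whole numbers. The submitters' processing notes name build rn6, RSEM 1.2.12, Bowtie2 2.2.6, HISAT2 2.0.4 and StringTie 1.2.1. What each did and whether strand was used are not given in these sources. Expected counts were rounded. Genes were filtered with filterByExpr by tissue, which left 11202 tested and 2352 not tested, scaled by TMM and compared, xiphoid minus articular, by edgeR's quasi-likelihood test (edgeR 4.0.16, R 4.3.3). Tissue was the only term, estimation was robust, and p-values were adjusted over the whole set of tested genes by Benjamini-Hochberg with a threshold of 0.05. The fit had 2 residual degrees of freedom. Standard errors are the log2 fold change divided by the square root of F, and intervals of folds use the fit's moderated degrees of freedom. Shares have exact Clopper-Pearson intervals at 95%.

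The members and lists were chosen with earlier results of these data known. All members could be named, with up to 4 genes of each other list by lowest adjusted p and those against their list's direction. Myod1, Myog, Mef2d, Atp2a2 and Syt8 were named after their values were seen. RefSeq promoters and overlaps are from GRCr8, for which all 46 members matched by gene identifier, and no coordinates were mixed with rn6. Alternatives were RLE and upper-quartile factors, library sizes alone, a replicate block, limma-voom (limma 3.58.1), DESeq2 1.42.0, no filter, a minimum mean CPM of 5, no ribosomal RNA rows and leaving out each library. The procedure was tested on simulated data.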

Additional observations from a re-analysis of the deposited data

How the results depend on the processing

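Of the 44 tested members, 39 kept their direction and their side of the threshold in each of 13 alternative fits that tested them, of which 4 left out a library each. The count of members called was 32 to 39 for higher in xiphoid cartilage, lowest with a mean CPM of at least 5, which left fewer members to test, and 1 for higher in articular cartilage throughout. Tnni2, Myl3 and Fbxo32, with fold changes near 0, changed sign. With upper-quartile factors the log2 fold change was -0.03 for Tnni2 (-0.0267) and for Myl3 (-0.0273). Over the fits that left out 1 library it was -0.144 to 0.207 for Tnni2, -0.249 to 0.359 for Myl3 and -0.248 to 0.231 for Fbxo32. Trim63 passed without xiphoid replicate 2 (0.85, adjusted p = 0.0235) and ranged from 0.14 to 0.85, and Tpm3 missed the threshold without either xiphoid library. Leaving out 1 articular library moved the fold of 14 called members, each with at most 82 articular counts, by over 1.5 times: Actn3, Ankrd23, Mybpc2, Myh4, Mylk2, Myom2, Myoz1, Myoz2, Tcap, Tnnc2, Tnni1, Tnnt1, Tnnt2 and Xirp2. The shares of isoforms per coding length were not run, since lengths were not at hand.

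With the limit at 10 articular counts in place of 3, 23 members were restricted and 10 not restricted, and with limits of 5% and 20% of the xiphoid level 13 and 8 were not restricted. Libraries of 1 number share only that number in the labels. Over 8064 genes the difference of replicate 1 and 2 correlated between the tissues with a Pearson's r of 0.452, as a description. With the replicate block 38 members were higher in xiphoid cartilage, Trim63 passed (0.53, adjusted p = 0.029), and all genes called as higher in xiphoid numbered 3484. A level under 0.186 CPM in articular cartilage could not be told from a count of 0.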
